A study of Arabidopsis thaliana with 18 samples.

Results

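The genes described here had more transcript on the herbicide norflurazon in wild-type seedlings but not in seedlings of the mutants gun1-9 or gun5. They were selected on the measured changes themselves. A probe set is the group of array probes that reports 1 transcript or a few near-identical ones. Its intensity was taken as log2(intensity + 1), and the change of a genotype is the mean of its treated arrays minus the mean of its untreated arrays. A probe set is a member when its change was at least 1 in Col-0 and at most 0.2 in both mutants. The rule left out control probe sets, the probe sets of the organelle genomes, a few named genes (among them anthocyanin genes) and 2 enzyme families known by name (UGT and CYP). It found 55 members among 22506 eligible probe sets (0.244%), of 22810 rows in all. Of the 55, 29 stand for 1 gene in the platform annotation, all 29 on nuclear chromosomes, and 1 stands for several genes. The other 25 are unnamed here and are given by probe set ID. For them, nuclear origin rests on the ID range alone. The exclusions by name could not be applied to these 25, so genes of the excluded kinds may be among them.

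The plants were Arabidopsis thaliana, either Col-0 (wild type) or 1 of the mutants gun1-9 and gun5, and seedlings were grown in continuous light for 5 days on plates containing sucrose, with or without 5 uM norflurazon. Each of the 6 groups had 3 arrays, described in the design as biological replicates. All treated groups were exposed to norflurazon from sowing, so the values describe seedlings grown on the herbicide and not a first response. Each genotype is 1 line, and the labels do not say what the alleles change in the proteins. The RNA came from whole seedlings, so that fewer cells of a type and less RNA per cell cannot be told apart.

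Plastids and the nucleus exchange signals. When carotenoid synthesis is blocked, light damages the plastid, and the damaged plastid represses nuclear photosynthesis genes and activates a number of stress genes. The gun (genomes uncoupled) mutants were found because nuclear photosynthesis genes stay more active in them under such damage. GUN1 is a plastid pentatricopeptide repeat protein, and GUN5 is a subunit of magnesium chelatase in chlorophyll synthesis. Most work on these mutants concerns repressed genes. The members are transcripts with the opposite direction, more abundant on norflurazon in the wild type.

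Median intensity per array lay between 14.7 and 16.3, and replicate arrays correlated with r of at least 0.992 across probe sets. Genes of a marker or pathway list were found through the platform annotation, which names no gene for many probe sets, so a gene not found may still be on the array. All 6 marker genes of green tissue were found, and 6, 4 and 5 of them were called lower on norflurazon (limma, adjusted p under 0.05) in Col-0, gun1-9 and gun5, with median changes of -3.07, -0.72 and -0.75. Of 5 root markers 2 were found, and EXPA7, an expansin of root hairs, went from 72.3 to 135.6 in Col-0. It was called higher in Col-0 (change 1.02), both of these root markers were called higher in gun1-9, and neither was in gun5. The green tissue markers are nuclear photosynthesis genes, the class that plastid damage represses. For them, less green tissue and less transcript per cell cannot be told apart. The part of tissue composition in the members' changes was not tested. No seed or vascular marker was found by name, so these tissues were not checked here. One array stood apart for the members. Untreated Col-0 array 1 was at least 2 log2 units above both other arrays of its group in 10 of all 22746 probe sets, and 5 of these 10 are members. In every other array this count was between 0 and 2, with 0 members.

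Members were a small part of what responded in Col-0. Of 947 eligible probe sets with a Col-0 change of at least 1, 296 also changed by at least 1 in both mutants. A change of at most 0.2 was found for 85 of the 947 in gun1-9 and for 133 in gun5, and the 55 members are those found in both. The members' changes in Col-0 were modest, with a median of 1.2 and a range of 1.03 to 2.29. For 27 members the change was under 1.2, and for 5 it was at least 1.5. In gun1-9 the median change was -0.11 (range -2.23 to 0.18) and in gun5 -0.10 (range -3.07 to 0.20). Within 0.2 of no change lay 35 members in gun1-9 and 33 in gun5, and 27 of the 55 were within it in both. At the other end, 10 members in gun1-9 and 11 in gun5 had changes of -0.5 or lower. Since the rule used these changes, they are descriptions and carry no test.

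**Figure D1:**
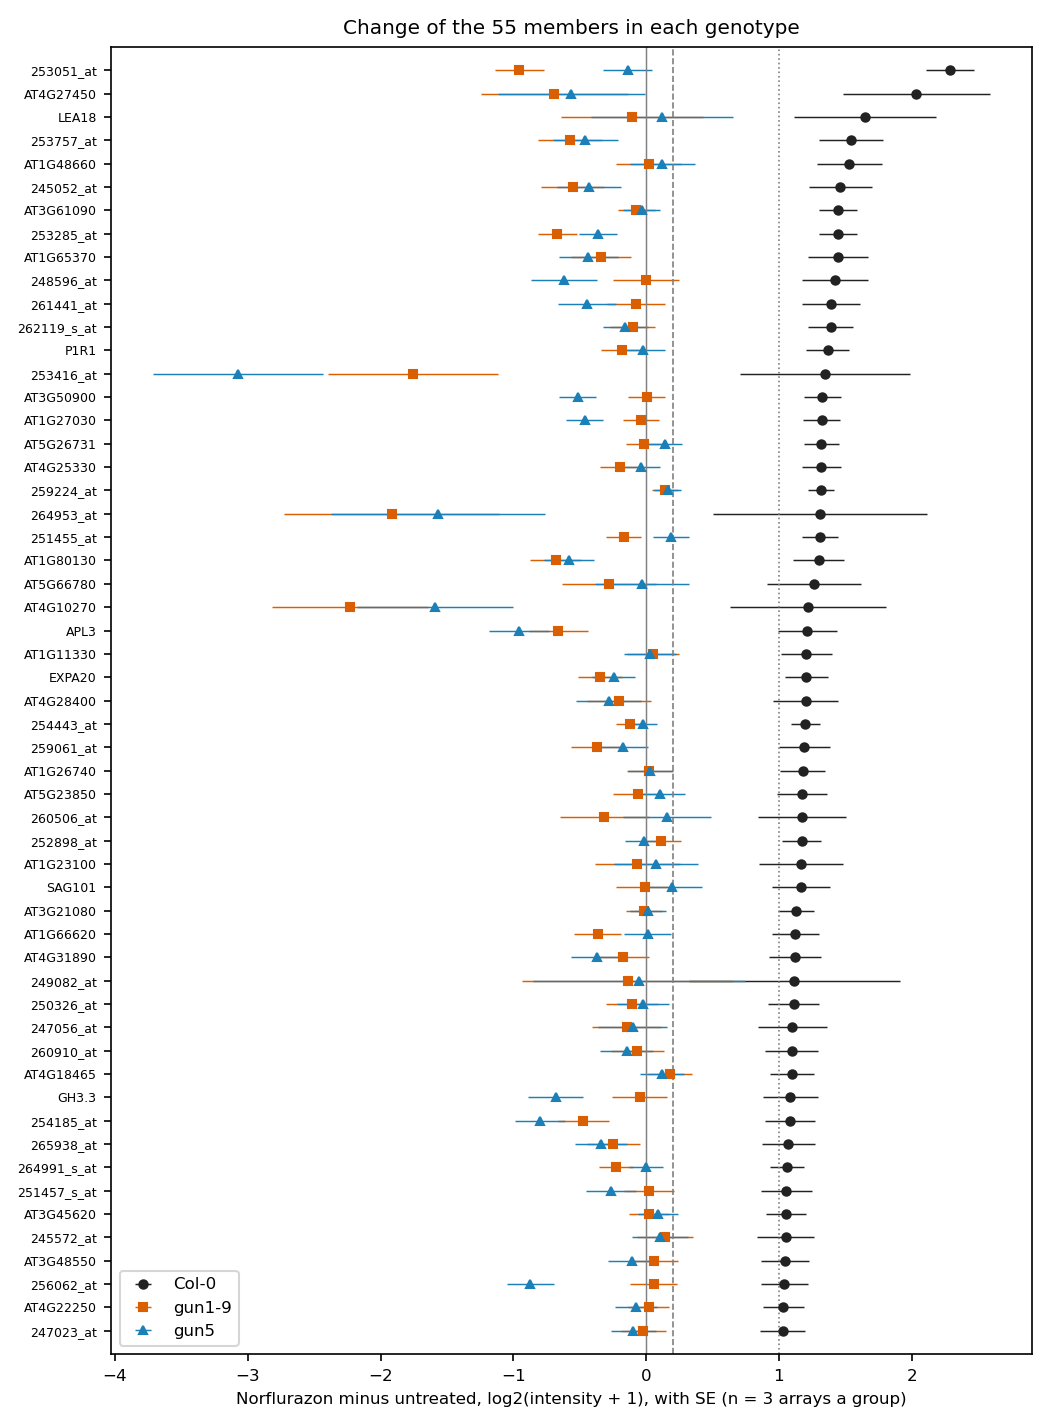
Change on norflurazon (x axis, log2 scale, with the SE of the fit) for each of the 55 members (y axis, ordered by the change in Col-0), in Col-0 (circles), gun1-9 (squares) and gun5 (triangles), 3 arrays a group. The dotted line marks the change of 1 needed in Col-0 and the dashed line the 0.2 allowed in the mutants. Within 0.2 of 0 in both mutants lie 27 members, and 253416_at, 264953_at and AT4G10270 lie below -1 in both.

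The thresholds cut through a continuous range. Just inside the Col-0 threshold were 247023_at (1.03), AT4G22250 (1.03) and 256062_at (1.04), and just outside it AT3G27400 (0.99), AT1G05030 (0.99) and AT1G67860 (0.98). Just inside the threshold for the mutants were SAG101 (0.20 in gun5), 251455_at (0.19 in gun5) and AT4G18465 (0.18 in gun1-9). Just outside it was SPT, whose change was 1.89 for Col-0, 0.14 for gun1-9 and 0.2001 for gun5. SPT encodes SPATULA, a transcription factor known from seed germination and carpel growth. The next outside were an unnamed probe set (0.21 in gun5) and AT2G16890 (0.21 in gun1-9).

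In treated Col-0 the members reached a median log2 level of 5.20, against 4.02 in untreated Col-0, where the median of all probe sets was also 4.02. Every treated Col-0 array lay above every untreated Col-0 array for 49 members. The share over all probe sets was 29.2%, and the rule used this contrast. For 40 members each treated Col-0 array also lay above all 15 other arrays, against 7.94% of all probe sets. The rule favours this order too, as it does treated Col-0 as the highest of the 6 groups. No share over all probe sets was computed for the latter, which held for 51 members. The other 4 were highest in untreated gun5. These 4 are AT4G27450, AT4G10270, 253416_at and 264953_at, and they belong to the 6 members whose Col-0 groups overlap.

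The first of the overlapping members carried the largest change of any named one. AT4G27450, a gene known for accumulating transcript under low oxygen, had intensities of 190.5, 21.2 and 23.7 in untreated Col-0 and of 131.4, 228.0 and 237.6 in treated Col-0. Untreated array 1 thus lay between the treated arrays, while arrays 2 and 3 were far below them. The untreated arrays of gun1-9 (123.7, 168.3 and 169.5) and of gun5 (137.5, 262.3 and 201.5) overlapped those of treated Col-0. On norflurazon the values were 82.1, 122.2 and 82.5 in gun1-9 and 149.4, 142.1 and 105.5 in gun5. The change in Col-0 was 2.04 with all arrays and 3.05 without untreated array 1, and the treated mean exceeded that array by 0.01.

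AT4G10270, of a family of wound-responsive proteins and likewise known from low oxygen, had 99.2, 14.3 and 13.1 in untreated Col-0 and 41.3, 85.8 and 72.9 in treated Col-0. In untreated gun1-9 it had 71.6, 69.7 and 96.0, and in untreated gun5 62.1, 123.7 and 152.4. On norflurazon it was at 10.04, 28.3 and 13.9 in gun1-9 and at 48.1, 38.9 and 21.7 in gun5. So 7 of the 9 untreated arrays were high, and the 2 low ones were Col-0 arrays 2 and 3. Its change in Col-0 was 1.22, or 2.14 without untreated array 1, and the treated mean was 0.63 log2 units below that array. In both mutants it had the most negative change of the named members, -2.23 in gun1-9 and -1.59 in gun5.

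The unnamed 253416_at and 264953_at followed the same arrays. In untreated Col-0, 253416_at had 200.2, 23.9 and 14.1, and 264953_at 704.7, 59.2 and 52.6. In treated Col-0 they had 89.9, 140.8 and 95.6, and 152.5, 424.2 and 529.9. For both, array 1 of the untreated group was above all 3 treated arrays. In untreated mutants 253416_at lay between 120.4 and 273.6, and 264953_at between 452.7 and 928.1. On norflurazon 253416_at was at 33.8, 72.4 and 54.8 in gun1-9 and at 30.5, 17.64 and 17.37 in gun5, where its change of -3.07 was the most negative of all members. The treated arrays of 264953_at had 52.8, 358.65 and 129.8 in gun1-9 and 328.5, 295.9 and 125.7 in gun5. Both of these ranges overlapped that of treated Col-0.

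These 4 were also the members with at least 1 log2 unit more transcript in untreated mutants than in untreated Col-0. The count was 4 of 55 (7.27%) in gun1-9 and 4 of 55 in gun5, where the shares over all probe sets were 0.167% and 0.343%. The untreated arrays enter the rule, and a high untreated level in a mutant favours membership, so this is a description. For AT4G10270 the untreated difference from Col-0 was 1.51 in gun1-9 and 1.94 in gun5, and for 264953_at 1.97 and 2.38. Without untreated Col-0 array 1 the count was 4 in gun1-9 and 6 in gun5, where P1R1 and AT4G28400 joined.

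The remaining overlapping members were low in the mutants. LEA18 encodes a late embryogenesis abundant protein, one of the small hydrophilic proteins made in drying seeds. It had 111.7, 11.8 and 35.2 in untreated Col-0 and 196.4, 81.5 and 97.8 in treated Col-0. In all 12 mutant arrays it lay between 3.70 and 8.16, so that each Col-0 array was above each mutant array. Its log2 difference from Col-0 without norflurazon was -2.50 in gun1-9 and -2.58 in gun5. The Col-0 change of 1.65 became 2.44 without untreated array 1. AT5G66780, another late embryogenesis abundant gene, shared this: 29.4, 7.85 and 24.2 in untreated Col-0, 66.5, 33.1 and 39.9 in treated Col-0, and 3.08 to 6.62 over the mutants. Its Col-0 groups did not overlap. The unnamed 249082_at had 72.0, 6.22 and 7.73 in untreated and 10.6, 46.4 and 83.5 in treated Col-0, and at most 14.8 in the mutants. LEA18, AT5G66780 and 249082_at were the 3 members (5.45%) at least 1 log2 unit lower in untreated mutants than in untreated Col-0, the same 3 in both and 2 of them without untreated Col-0 array 1, against 0.215% of all probe sets in gun1-9 and 0.281% in gun5.

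**Figure D2:**
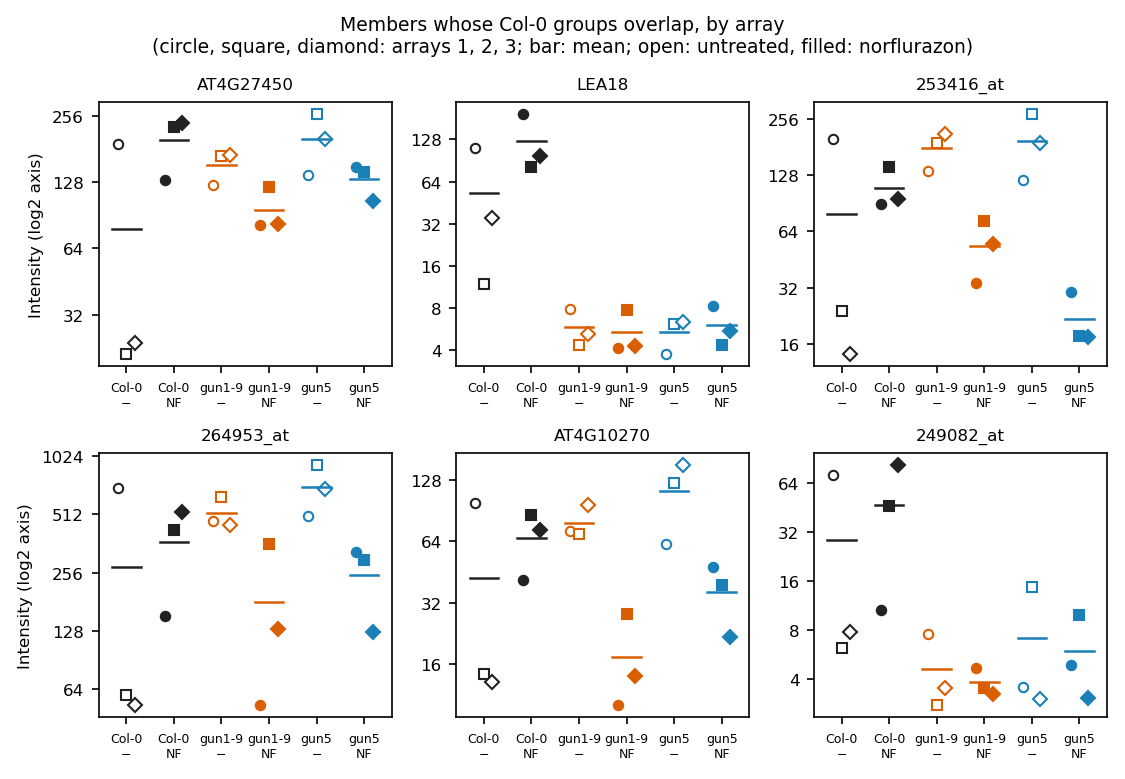
Intensity in each of the 18 arrays (y axis, log2-spaced) for the 6 members whose Col-0 groups overlap, by genotype without (-) and with norflurazon (NF). Symbols give the array number and bars the arithmetic mean. The open circle of Col-0, untreated array 1, lies far above arrays 2 and 3 in every panel. In AT4G27450, AT4G10270, 253416_at and 264953_at it is level with the untreated mutants, and in LEA18 all mutant arrays are below all Col-0 arrays.

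Without untreated Col-0 array 1, all 55 members had treated arrays above the other 2 untreated arrays, against 32.9% of all probe sets. The rule applied without that array found 73 probe sets, and 52 of the 55 were among them. The 3 that dropped out were 254185_at, 251457_s_at and 256062_at, with Col-0 changes of 0.85, 0.94 and 0.91. The change of the 6 overlapping members was larger without it, from 2.14 for AT4G10270 to 3.05 for AT4G27450.

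Among the 49 members with separate Col-0 groups, the largest change was that of the unnamed 253051_at. It had 19.7, 21.7 and 13.8 in untreated and 103.9, 78.6 and 96.2 in treated Col-0, a change of 2.29. All mutant arrays lay between 12.7 and 37.9, and the change in gun1-9 was -0.96. Next were 253757_at (1.54) and AT1G48660 (1.53).

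AT1G48660 belongs to the GH3 family, whose enzymes join hormones such as auxin to amino acids. It had 6.84, 3.32 and 4.49 in untreated Col-0 and 9.04, 17.0 and 23.7 in treated Col-0. Over the 12 mutant arrays it stayed between 2.91 and 4.06, and its mean was dim in all 4 mutant groups. Dim here means below a log2 level of 2.26, the first quartile of probe set levels averaged over arrays. A second gene of the family, GH3.3, had 27.4, 19.2 and 19.7 in untreated and 48.2, 51.0 and 43.3 in treated Col-0, a change of 1.08. In gun1-9 it was flat, at 20.0 to 24.0 in all 6 arrays. In gun5 it had 20.4, 41.8 and 39.3 without and 23.9, 16.6 and 19.6 with norflurazon, and these groups overlap.

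APL3, a large subunit of ADP-glucose pyrophosphorylase, the enzyme that commits glucose to starch, differed in direction between genotypes. It had 11.7, 10.1 and 11.1 in untreated Col-0 and 35.4, 27.8 and 19.3 in treated Col-0, a change of 1.21. In gun1-9 it had 12.7, 9.72 and 9.93 without and 6.21, 7.69 and 5.5 with norflurazon. In gun5 it had 10.9, 16.2 and 9.47 without and 8.02, 4.43 and 4.96 with it. The 3 untreated groups overlapped each other, and in each genotype the treated and untreated arrays were apart, upward in Col-0 and downward in both mutants. Its changes in the mutants were -0.66 and -0.96.

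SAG101, the partner of the immune regulator EDS1, is known from defence. Its intensities were low, with 5.17, 3.81 and 6.08 in untreated and 16.8, 10.2 and 10.9 in treated Col-0, a change of 1.16, and 4.38 to 8.56 over the mutants. AT1G11330, a lectin receptor kinase gene, had 10.4, 13.8 and 16.4 in untreated and 32.6, 35.0 and 28.8 in treated Col-0 (change 1.21). Its changes in gun1-9 and gun5 were 0.05 and 0.03, and its mutant arrays reached at most 23.3. AT4G28400, a protein phosphatase 2C gene, had 75.03, 41.4 and 122.9 in untreated and 154.9, 174.0 and 176.6 in treated Col-0. Its untreated Col-0 arrays spanned a wide range, and the untreated gun5 arrays (142.9, 141.5 and 153.0) were above all 3 of them.

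EXPA20 encodes an expansin, a protein that loosens cell walls. It had 4.30, 5.21 and 5.87 in untreated and 17.63, 10.2 and 12.2 in treated Col-0, and at most 6.10 in the mutants. AT1G26740, a ribosomal L32 protein of the bacterial type, had 52.2, 78.8 and 73.4 in untreated and 173.9, 152.9 and 135.0 in treated Col-0, against 71.6 to 104.6 over the mutants. AT1G23100, a GroES-like co-chaperonin, had 32.8, 21.5 and 36.2 against 98.0, 73.3 and 42.6 in Col-0. Its mutant arrays lay between 20.95 and 50.9, so some were above the lowest treated Col-0 array.

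**Figure D3:**
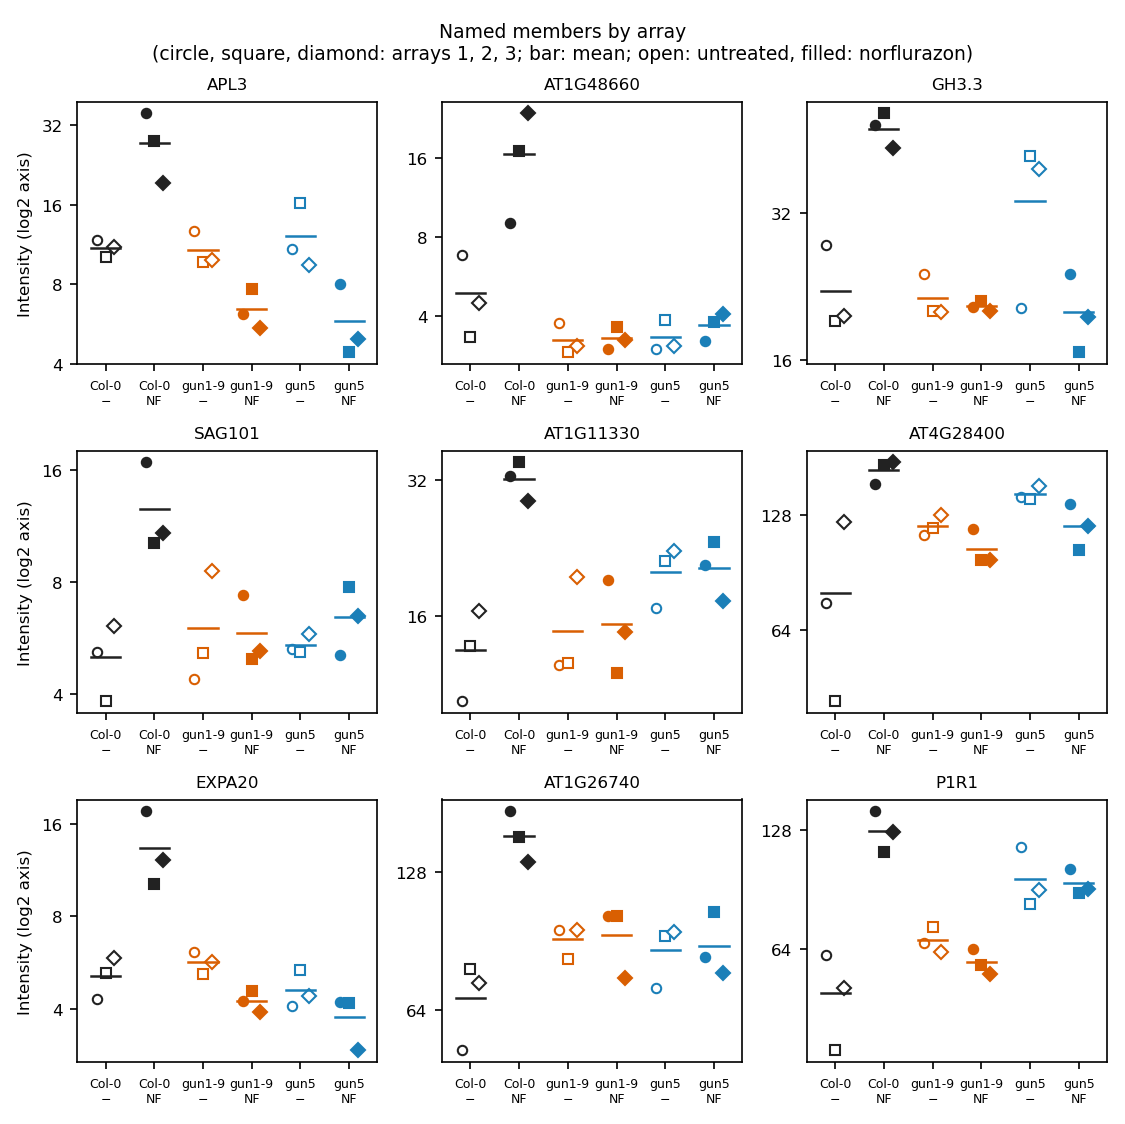
Intensity in each of the 18 arrays (y axis, log2-spaced) for 9 named members with separate Col-0 groups, by genotype without (-) and with norflurazon (NF). Symbols give the array number and bars the arithmetic mean. Treated Col-0 is the highest group in each panel, APL3 is lower on norflurazon in both mutants, and P1R1 is higher in gun5 than in gun1-9.

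Genes linked to protein turnover were AT1G66620 of the SINA-like ubiquitin ligases (change in Col-0 1.12), AT4G22250 with a RING domain (1.03) and AT3G45620 with WD40 repeats (1.05). AT3G45620 had 103.7, 65.2 and 85.8 in untreated and 165.4, 187.2 and 170.3 in treated Col-0, and 87.6 to 133.3 over the mutants. Of the other named members, AT1G65370 (1.44), AT3G61090 (1.45), P1R1 (1.37), AT3G50900 (1.33) and AT1G27030 (1.32) had the largest changes in Col-0. AT1G27030 was among the brighter ones, with 131.9, 160.2 and 123.0 in untreated and 320.8, 404.8 and 316.1 in treated Col-0, and 116.6 to 186.0 over the mutants. AT3G50900 had 34.1, 35.1 and 35.0 in untreated and 90.9, 89.3 and 85.6 in treated Col-0, and 32.9 to 68.6 over the mutants. For both, treated Col-0 was apart from all other arrays.

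The other 8 members with a gene name, AT5G26731, AT4G25330, AT1G80130, AT5G23850, AT3G21080, AT4G31890, AT4G18465 and AT3G48550, had Col-0 changes between 1.05 and 1.32. By their annotated families, AT1G80130 has tetratricopeptide-like repeats, AT4G31890 has armadillo repeats, AT4G18465 is an RNA helicase and AT3G21080 is related to ABC transporters. AT1G80130 had changes of -0.68 in gun1-9 and -0.58 in gun5, with a change of 1.30 in Col-0. The brightest member was the unnamed 262119_s_at, with 551.4, 569.4 and 580.9 in untreated and 1430, 1681 and 1374 in treated Col-0, and 447.1 to 867.5 over the mutants. The ending of its ID marks a probe set that can report several similar genes.

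Some members were close to the lower limit of the arrays. For AT3G61090, AT4G25330, AT3G21080 and 251455_at every group but treated Col-0 had a mean below the dim level. AT3G61090, for example, had 3.15, 3.56 and 3.43 in untreated and 14.6, 10.7 and 8.24 in treated Col-0, and 2.79 to 3.61 over the mutants. The size of the change depends on the background step and the constant added, and not for these 4 alone. With log2(intensity + 16), which shrinks changes of dim probe sets, the median Col-0 change of the 55 was 0.74. By the rule with that constant, 12 of the 55 were still members.

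Treated mutants were compared with both states of Col-0. In treated gun1-9, 41 of the 55 members lay within 0.5 log2 units of their untreated Col-0 level, and in treated gun5 42. The share over all probe sets was not computed, and the rule limits the change in the mutants. Nothing is read from these counts. All 55 were below treated Col-0 in both mutants, which the rule makes likely, with median differences of -1.21 and -1.18. Without norflurazon the median difference from Col-0 was 0.20 in gun1-9 and 0.19 in gun5, with 39 and 37 members above 0. The median over all probe sets was 0.00 and -0.02. A low untreated level in Col-0 and a high one in a mutant both favour membership, so these differences are descriptions.

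**Figure D4:**
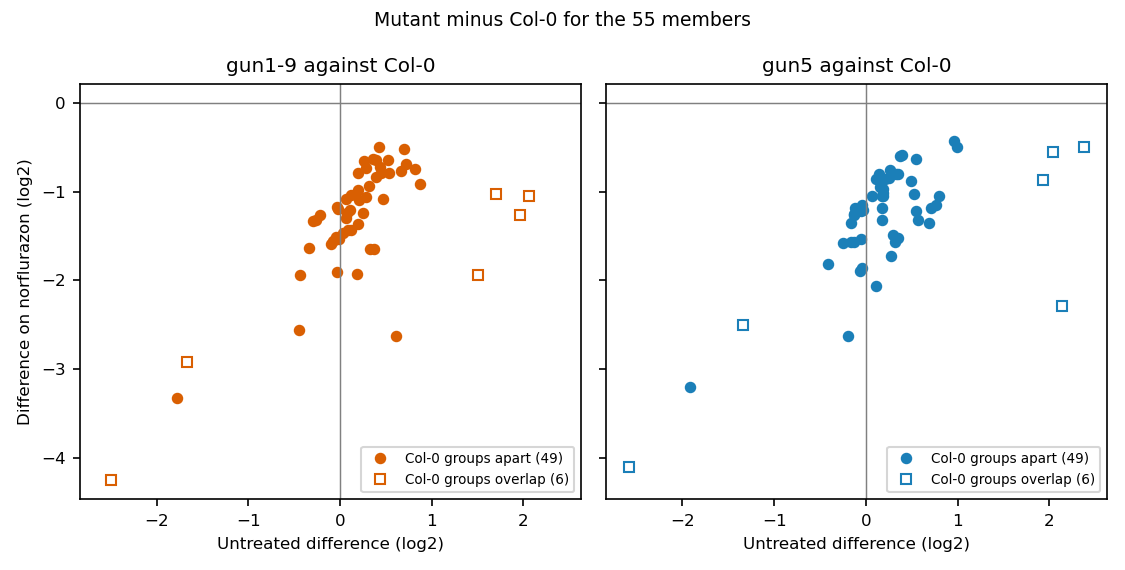
Log2 difference between each mutant and Col-0 without norflurazon (x axis) and on norflurazon (y axis) for the 55 members, with gun1-9 on the left and gun5 on the right. Filled circles are the 49 members with separate Col-0 groups and open squares the 6 that overlap. All points lie below 0 on the y axis, 4 open squares lie beyond 1 on the x axis in each mutant, and LEA18 is at the lower left.

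The rule chose members on similar changes in both mutants and did not use the mean of a mutant's treated and untreated levels, which is uncorrelated with its change in the fit. This mean was therefore compared between gun1-9 and gun5 (limma on all 18 arrays, 2-sided, adjusted over all 22746 probe sets). It was called higher in gun1-9 for 2 members (3.64%) and lower for 4 (7.27%), where the shares over all probe sets were 4.1% and 4.76%. The members as a whole thus differed between the mutants about as often as other probe sets. The median difference was -0.01 and the range -0.75 to 0.60.

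P1R1 was the named gene with the lower level in gun1-9. In Col-0 it had 62.0, 35.6 and 51.1 without and 142.3, 112.1 and 126.0 with norflurazon. It had 66.2, 72.7 and 63.0 without and 64.2, 58.4 and 55.5 with norflurazon in gun1-9, and 115.5, 83.0 and 89.97, then 101.8, 88.8 and 90.8 in gun5. All 6 gun5 arrays were above all 6 gun1-9 arrays. The difference of the means was -0.57 ± 0.12 SE (limma, adjusted p = 0.00402, and 0.000677 to 0.110 over 29 alternatives). The unnamed 253285_at (-0.55 ± 0.10 SE, limma adjusted p = 0.00219, and 0.000445 to 0.0831) also lay lower in gun1-9. So did 262119_s_at (-0.46, adjusted p = 0.0211, and 0.00096 to 0.231) and 264991_s_at (-0.33, adjusted p = 0.0259, and 0.0157 to 0.321), which stands for several genes.

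AT1G65370 was higher in gun1-9, with 13.8, 15.3 and 23.7 without and 12.1, 15.4 and 12.6 with norflurazon, against 10.7, 13.8 and 9.80, and 8.15, 9.51 and 6.91 in gun5. The difference of the means was 0.60 ± 0.16 SE (limma, adjusted p = 0.0243), with adjusted p from 0.0128 to 0.143 over the alternatives. AT4G22250 (0.38 ± 0.11 SE, limma adjusted p = 0.0426) was not called in 19 of 29 alternatives, with adjusted p from 0.0315 to 0.236.

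**Figure D5:**
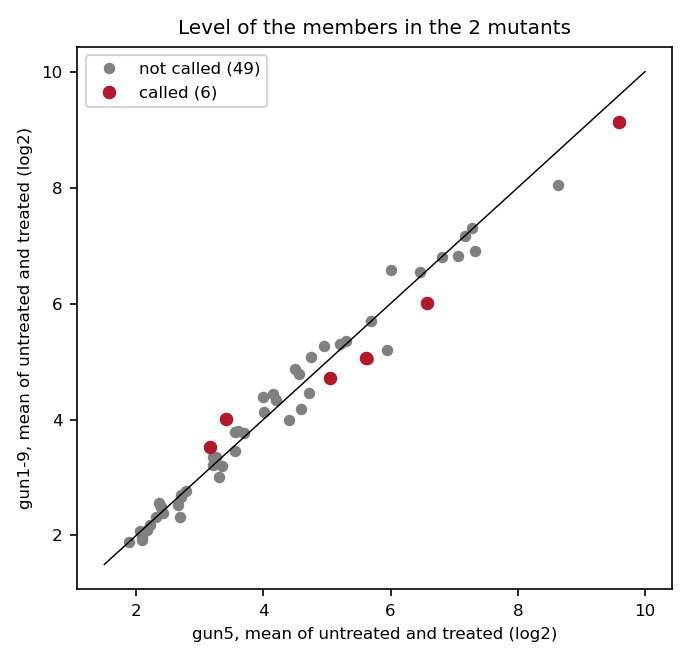
Mean log2 level over untreated and treated arrays in gun5 (x axis) and gun1-9 (y axis) for the 55 members, with the line of equal levels. The 6 red points were called different by limma, 2 above and 4 below the line, and the 49 grey points were not called.

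Values of arrays that the rule had not used were read by leaving out all arrays of 1 number. With arrays 2 and 3 of each group the rule chose 90 probe sets, 43 of them members. In the left-out arrays numbered 1, the median change of these 90 was 0.75 for Col-0, -0.06 for gun1-9 and 0.08 for gun5, and 16 of the 90 met the whole rule, against 0.24% of all eligible probe sets. Without the arrays numbered 2, 60 were chosen and the left-out median was 1.05 in Col-0 and close to 0 in both mutants, with 22 of 60 meeting the rule against 0.555%. Without those numbered 3, 49 were chosen and the medians were 1.02, -0.18 and -0.38, with 19 of 49 meeting it against 0.564%. In each case the left-out change in Col-0 was smaller than the 1.2 to 1.24 of the choosing arrays. It was above 0 for 77 of 90, 60 of 60 and 46 of 49 probe sets, and at least 1 for 33, 34 and 26 of them. A left-out change of at most 0.2 was found for 66, 43 and 40 of them in gun1-9. In gun5 it was found for 62, 48 and 41. The shares of all probe sets at these separate limits were not computed. With all arrays, the median change over all probe sets was 0.02 in gun1-9 and 0.04 in gun5, both under 0.2. A change of at most 0.2 was therefore common among all probe sets, and nothing is read from these mutant counts.

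Other genes of stress and hormone pathways were read from 11 lists, of which 8 had a gene found by name. Over all probe sets, limma called 24.2% higher and 15.1% lower on norflurazon in Col-0, 20.5% and 15.7% in gun1-9, and 15.7% and 13.2% in gun5. By the same call 51 of the 55 members were higher in Col-0, 6 were lower in gun1-9 and 8 were lower in gun5, counts that the rule itself fixes in part and from which nothing is read. Of 14 low-oxygen genes 3 were found, and AT4G10270 is one. LDH1, lactate dehydrogenase, went from 61.5 to 85.1 in Col-0 and was called higher (change 0.46). HRA1, a transcription factor that restrains the low-oxygen response, had a change of 0.01 in Col-0 and was called lower in both mutants (-0.67 and -0.72). Its intensities were low, from 6.67 to 3.85 in gun1-9 and from 8.63 to 4.79 in gun5. Of 22 defence genes 3 were found. SAG101 is a member, and WRKY53 and PDF1.2A had Col-0 changes of 0.02 and -0.44 and were not called in any genotype.

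Of 11 genes of sugar and carbon starvation, the one found is APL3. Of 18 heat shock genes 3 were found. FES1A, a cochaperone of HSP70, went from 27.4 to 56.5 in Col-0 (1.11) and was called higher in all 3 genotypes, with changes of 2.06 in gun1-9 and 1.31 in gun5. All 3 of these heat shock genes were called higher in gun1-9. There HSP17.6C went from 2.90 to 6.63 and HSP22 from 2.55 to 3.42. These intensities are close to the lower limit of the arrays, so the changes depend on the background step. Of 28 genes of abscisic acid, cold and dehydration 4 were found, with 2 called lower in Col-0. These were COR15A (-1.13) and COR15B (-1.16), cold-regulated proteins of the plastid. COR15A was also called lower in gun1-9 (-0.72) and gun5 (-1.05), and COR15B in gun5 (-0.67). Their intensities were low, in Col-0 from 7.35 to 2.83 and from 10.4 to 3.98. The genes found of the jasmonate (1 of 20), oxidative stress (1 of 16) and senescence (2 of 10) lists were not called in Col-0. No gene of the ethylene, phosphate starvation or flavonoid regulator lists was found by name, and these lists were not analysed here. The 29 named members were scattered over the chromosomes, with no pair of neighbouring genes among them.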

How the data were processed

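RNA of 18 samples, 3 in each of 6 groups, was measured on Affymetrix arrays. The authors deposited 1 intensity per probe set and array on a linear scale. GCRMA and MAS5 are named, with no role or version, per the submitters' processing notes. How background subtraction and scaling were done is not given in the sources used here, and it sets the values of dim probe sets.

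Intensities were used as deposited, as log2(intensity + 1). limma 3.58.1 (R 4.3.3) was fitted to the 22746 probe sets that are not controls, on all 18 arrays with 1 mean per group, and p-values were adjusted over all of them by the Benjamini-Hochberg method, with calls at an adjusted p under 0.05. The code was tested on simulated data. Figures were drawn with matplotlib 3.10.9. The number of arrays limits the precision.

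Members, lists and alternatives were chosen with earlier results of these data known, and the roles of members were assigned after the members were seen. By rule, the text names, among members with exactly 1 gene, those with a symbol, the 15 largest changes in Col-0 and the 3 most negative changes in each mutant, with members called between the mutants, members of a list, those beside a threshold and unnamed ones among the 5 largest changes. Other members are named after their values were seen. Gene names come from the platform annotation. Of 22746 probe sets, 13513 had 1 gene, 503 had several and 8730 were not listed.

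Replicate numbers are shared by the groups. Deviations of same-numbered arrays correlated between -0.11 and 0.19 in 45 pairs, with 7 over 0.1, so the numbers were not taken to pair the samples. Promoter motifs were not analysed here.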

Additional observations from a re-analysis of the deposited data

How the results depend on the processing

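The size of the set depends on the thresholds and on the constant added. The rule gave 55 members. With log2(intensity + 16) it gave 17, of which 12 were among the 55. With log2(intensity + 4) it gave 39, of which 33 were. It gave 108 with a change of at least 0.8 in Col-0 and 5 with at least 1.5. For the mutants, it gave 33 with at most 0 and 140 with at most 0.5. With arrays left out it gave 45 to 90, the highest without replicate 1, and at least 34 were shared. The median change in Col-0 was 0.74 with log2(intensity + 16), and with arrays left out it was 1.19 to 1.25 in Col-0, -0.18 to -0.10 in gun1-9 and -0.26 to -0.02 in gun5. Dim members limit the precision of these sizes, and the cause of the dependence on the constant is its construction.

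In the comparison of mean levels between the mutants, 2 members were called higher in gun1-9. This count was 1 with each array centred on its median, with quantile normalization, with the replicate block, with trend and robust settings, and with only the arrays of gun1-9 and gun5. It was 0 with log2(intensity + 16) and 0 to 3 with arrays left out, 0 of them without replicate 2. The 4 called lower became 2 with only the arrays of the mutants and 1 to 5 with arrays left out, 1 of them without replicate 2. With the replicate block they stayed at 4. The causes were not tested. No named difference changed sign in 29 alternatives.

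The count of members at least 1 log2 unit higher in an untreated mutant was 4 to 7 in gun1-9 and 4 to 7 in gun5 with arrays left out. The count of members with separate Col-0 groups went from 49 to 55 without untreated Col-0 array 1, an alternative chosen after seeing the data. The comparison of promoter motifs was not run.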
